A study of Mus musculus with 12 samples.

Results

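The 8 genes Dbp, Tef, Hlf, Nfil3, Ciart, Bhlhe40, Bhlhe41 and Rora encode transcription regulators that carry the rhythm of the circadian clock to other genes. They were chosen by name rather than by a rule on their values, though earlier results of these data were known. All 8 were found among the 43346 genes counted and were among the 16146 genes with enough reads to test. Polyadenylated RNA of quadriceps, the large thigh muscle, was sequenced from C57BL/6 mice in 3 groups of 4 libraries. Young mice were 6 months old, and the labels state no gavage for them. Old vehicle mice were 24 months old and had been given the vehicle alone by gavage, 3 days running per 2-week cycle, starting at month 20. The vehicle was 60% Phosal 50 and 30% polyethylene glycol, the remaining 10% being ethanol. Old D+Q mice were of the same age and schedule and received dasatinib at 5 mg/kg, a tyrosine kinase inhibitor, plus quercetin at 50 mg/kg, a plant flavonoid, a pair used as a senolytic treatment meant to remove senescent cells. Age and gavage therefore differ together between young and old vehicle and cannot be told apart there. The labels give no hour of collection, so the levels of genes with a daily rhythm cannot be set against time of day. Nor do they state whether every library came from its own mouse, and p-values cover only the variation among the libraries at hand.

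Library totals ran from 26715140 to 49792488 reads, and 3 reads corresponded to between 0.0561 and 0.106 CPM, the read count scaled to a common library total. All 10 markers of skeletal muscle fibres had reads, with summed levels of 82170 to 142621 CPM over the 12 libraries. Markers of T, B and plasma cells, 5 of 6 found, summed to between 0.204 and 2.02 CPM, and each marker found had at least 1 read in some library. The neutrophil marker Ly6g was at 0 in 11 of the 12 libraries, with 1 read in old D+Q replicate 4. Young replicate 4 had the lowest summed level of 5 endothelial markers, 283 CPM against 377 to 474 CPM elsewhere. Young replicate 2 had the highest summed adipocyte markers, 1763 CPM against 351 to 969 CPM elsewhere. Its summed Schwann cell markers were also highest, 201 CPM against 71.4 to 131 CPM, and the part of either in the results was not tested. In old D+Q replicate 4, 5 neutrophil markers summed to 23.9 CPM, against at most 2.52 CPM in the other 11 libraries. Old vehicle replicate 3 stood apart from its group in several clock genes, and young replicate 4 and old D+Q replicate 2 in Ciart. Group differences and pair correlations that rest on these libraries are therefore also given without them. The spread within groups and the search for genes of similar level were not redone without them. In bulk tissue, fewer cells of a type and less RNA per cell cannot be told apart.

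The mammalian clock is a loop in which Arntl (also called Bmal1) and Clock bind DNA elements named E-boxes and switch on their own repressors, the Per and Cry genes. The same elements drive output regulators. Dbp, Tef and Hlf form the PAR bZIP family, activators that bind a second element, the D-box, while Nfil3 (also called E4bp4) binds D-boxes as a repressor. In mouse liver Dbp and Nfil3 peak at opposite times of day, and in muscle Dbp is one of the genes with a strong daily rhythm. Bhlhe40 and Bhlhe41 (Dec1 and Dec2) bind E-boxes and repress there, and Ciart (Chrono) represses the Arntl and Clock pair. Rora activates genes, Arntl among them, through an element named the RORE, at which Nr1d1 and Nr1d2 (Rev-erb alpha and beta) repress.

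The promoters show which of the 8 genes carry the E-box letters at their start. RefSeq promoter windows of 300 bases, from 250 bases before to 50 bases after the start on GRCm38.p6 (the assembly called mm10), were available for 7 of the 8 genes and gave 8 sequences, 2 of them for Tef. The E-box CACGTG, which reads the same on both strands, was present in windows of 3 genes: Ciart, Tef and Bhlhe41. It occurred in 7.15% of all 32851 promoter windows. The Ciart window held 3 of them, whose first bases lay 116, 58 and 44 bases before the start. Only 29 of the 32851 windows (0.0883%) held 3 or more. The 2 Tef windows held 1 each, at 127 and 138 bases before their starts, and the Bhlhe41 window held 1 at 153 bases before. The D-box, searched as TTATGTAA and TTACGTAA on both strands, was in none of the 8 windows and in 1.06% of all windows. The RORE core AGGTCA, also searched on both strands, was in the Nfil3 window alone among the 8 genes and in 16.3% of all windows. The Dbp, Hlf and Rora windows held none of these letters, which says nothing of elements elsewhere in those genes. The 4 windows with an E-box are printed because their genes differ in how they vary below. Each is given in the direction of transcription, with the E-box in capitals. Ciart lies on the minus strand at chr3:95882179-95882478, the Tef windows on the plus strand at chr15:81802423-81802722 and chr15:81811164-81811463, and Bhlhe41 on the minus strand at chr6:145865371-145865670.
Ciart: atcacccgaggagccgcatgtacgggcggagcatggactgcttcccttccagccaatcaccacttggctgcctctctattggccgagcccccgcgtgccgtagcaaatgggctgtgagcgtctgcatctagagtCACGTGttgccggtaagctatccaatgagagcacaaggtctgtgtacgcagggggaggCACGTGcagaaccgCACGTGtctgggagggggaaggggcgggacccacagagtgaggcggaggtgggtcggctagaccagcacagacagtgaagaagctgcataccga
Tef, upstream start: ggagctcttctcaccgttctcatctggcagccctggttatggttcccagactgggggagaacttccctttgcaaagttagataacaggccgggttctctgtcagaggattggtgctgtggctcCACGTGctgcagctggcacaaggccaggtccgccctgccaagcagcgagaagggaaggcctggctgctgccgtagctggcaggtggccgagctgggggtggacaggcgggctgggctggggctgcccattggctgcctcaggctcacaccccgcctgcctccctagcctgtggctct
Tef, downstream start: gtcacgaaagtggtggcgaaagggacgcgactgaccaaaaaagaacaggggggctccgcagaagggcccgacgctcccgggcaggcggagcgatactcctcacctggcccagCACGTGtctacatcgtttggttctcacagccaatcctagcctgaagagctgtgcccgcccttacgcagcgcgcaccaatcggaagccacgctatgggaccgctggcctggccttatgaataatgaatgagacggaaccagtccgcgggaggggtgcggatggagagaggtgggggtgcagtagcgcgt
Bhlhe41: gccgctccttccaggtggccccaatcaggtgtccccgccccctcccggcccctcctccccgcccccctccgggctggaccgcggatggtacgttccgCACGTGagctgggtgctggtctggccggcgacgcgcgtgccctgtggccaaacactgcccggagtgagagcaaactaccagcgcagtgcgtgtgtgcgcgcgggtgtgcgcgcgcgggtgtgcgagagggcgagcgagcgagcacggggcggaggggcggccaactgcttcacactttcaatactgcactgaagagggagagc

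Between genes, levels can be compared only per length, and the authors' deposited RPKM values (reads scaled by gene length and library size) served for that. Bhlhe40 had the highest median over the 12 columns at 63.1 RPKM, followed by Tef at 37.5 RPKM and Nfil3 at 35.6 RPKM. Rora (6.94 RPKM), Bhlhe41 (4.62 RPKM) and Dbp (3.27 RPKM) were lower, and Hlf (1.64 RPKM) and Ciart (1.36 RPKM) were lowest. The range over the columns of each gene overlapped that of the next in this order, so neighbours were not separated beyond their spread. Tef and Nfil3, an activator and a repressor of the same element, had close medians, but their ranges differed in width: 33.8 to 48.0 RPKM for Tef and 8.12 to 63.9 RPKM for Nfil3. Ciart ran from 0.490 to 15.6 RPKM.

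**Figure D1:**
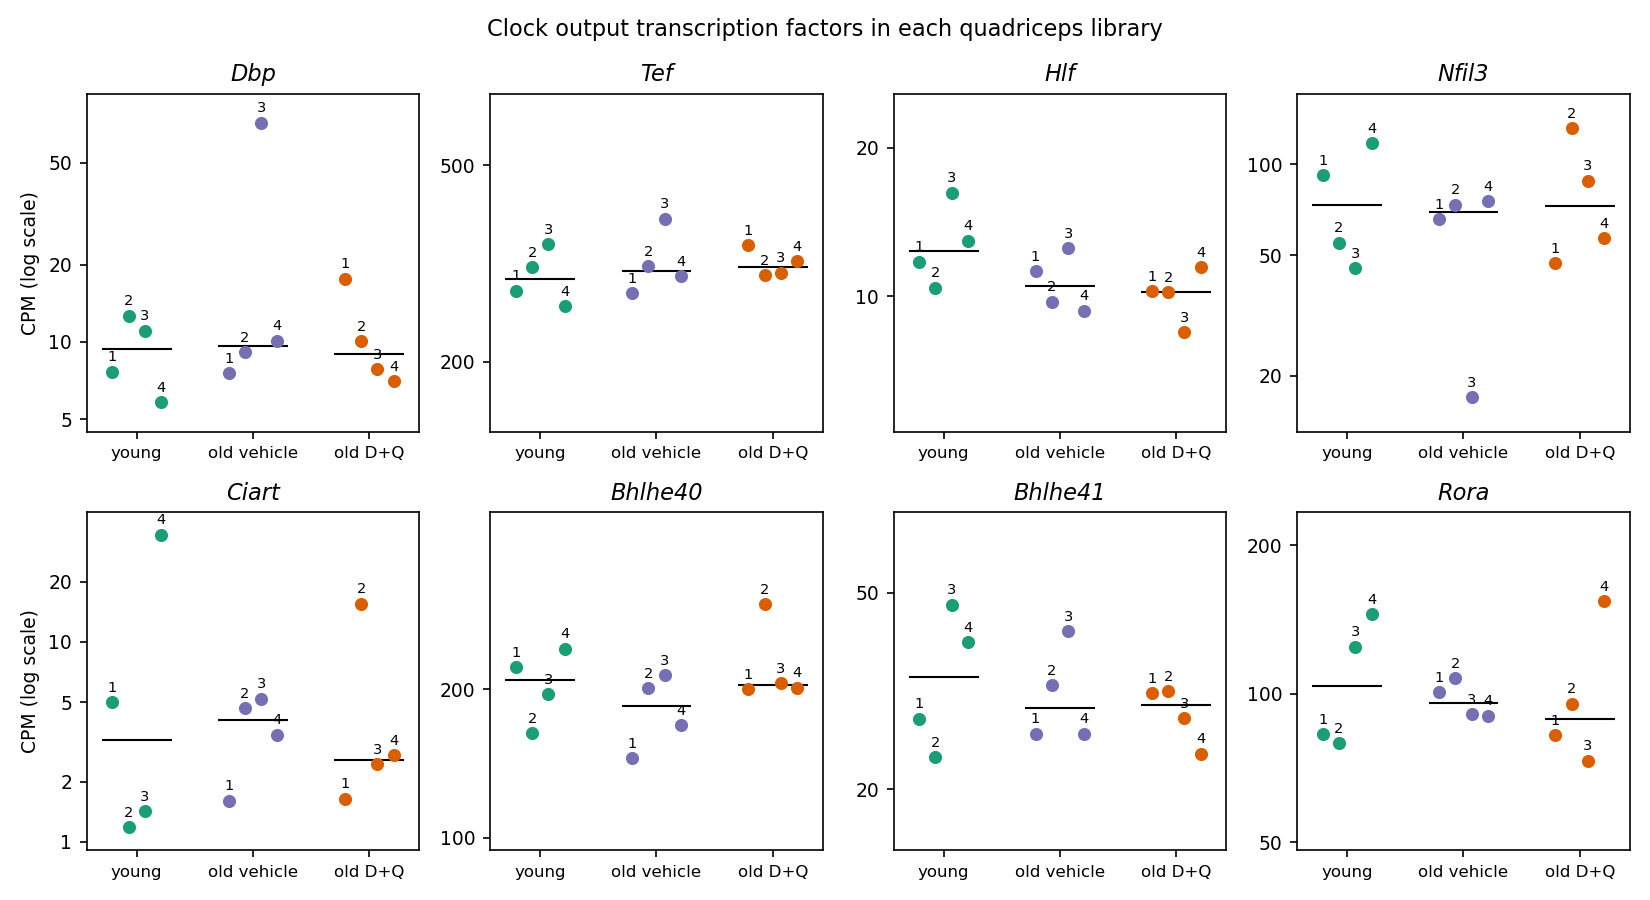
Level of each of the 8 genes in CPM (TMM-scaled library totals) on a log axis that differs by panel, with 1 point per library labelled by its replicate number and a line at the median of each group of 4. Dbp in old vehicle replicate 3 (71.7 CPM) and Ciart in young replicate 4 (34.4 CPM) stand far above the other libraries of their groups, and the 3 groups overlap in every panel.

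Dbp, the activator best known as a clock output, lies on chromosome 7 from 45705088 to 45710155 on the plus strand of mm10. It measured 7.64, 12.7, 11.1 and 5.81 CPM in young replicates 1 to 4. The old vehicle replicates held 7.57, 9.15, 71.7 and 10.1 CPM, and the old D+Q replicates 17.6, 10.1, 7.83 and 7.03 CPM. A single library, old vehicle replicate 3, was high, at 9.46 times the lowest library of its group, and the other 11 libraries of the 3 groups overlapped. Group means were 9.29 ± 3.13 CPM in young, 24.6 ± 31.4 CPM in old vehicle and 10.6 ± 4.84 CPM in old D+Q (SD, n = 4). Of the exon bases annotated for Dbp, 18.0% are shared with Sphk2 on the other strand, and the strand setting of the counting is not given in the sources used here. Sphk2, a sphingosine kinase, stood at 14.2 CPM in old vehicle replicate 3, against a median of 14.1 CPM over the 12 libraries, so the high Dbp reading had no counterpart in Sphk2.

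Tef, on chromosome 15 from 81802421 to 81826861 on the plus strand, was the most abundant of the 3 activators per length and the steadiest of the 8 genes. Its levels were 278, 311, 346 and 259 CPM in young, 276, 312, 389.6 and 298 CPM in old vehicle and 345, 299.5, 303 and 319 CPM in old D+Q. The highest value belonged again to old vehicle replicate 3, and the groups overlapped. Hlf, on chromosome 11 from 90336536 to 90390895 on the minus strand, had 11.7, 10.4, 16.2 and 13.0 CPM in young, 11.2, 9.75, 12.5 and 9.36 CPM in old vehicle and 10.2, 10.2, 8.45 and 11.4 CPM in old D+Q. Of the young libraries, 3 lay above every old D+Q library and replicate 2 lay inside the old D+Q range, so the groups overlapped. Of the 3 PAR bZIP activators, therefore, the spread of Dbp was wide and that of Tef and Hlf narrow.

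Nfil3, the D-box repressor, lies on chromosome 13 from 52967209 to 52981073 on the minus strand. Its levels were 92.0, 55.2, 45.3 and 118 CPM in young, 65.9, 73.5, 17.0 and 75.8 CPM in old vehicle and 47.2, 132, 88.4 and 57.1 CPM in old D+Q. Old vehicle replicate 3, the library with the highest Dbp and Tef, had the lowest Nfil3, and the groups overlapped. The per-length ratio of Dbp to Nfil3, from counts over gene length, was 2.90 in that library and between 0.0340 and 0.257 in the other 11. For Tef to Nfil3 it was 5.91 there and between 0.568 and 1.96 in the others. In this library the balance of activator to repressor transcripts was thus inverted for Dbp, whose level per length was below that of Nfil3 in the remaining 11.

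Ciart, the repressor of the Arntl and Clock pair, lies on chromosome 3 from 95878503 to 95882251 on the minus strand. It was measured at 5.01, 1.18, 1.42 and 34.4 CPM in young, 1.61, 4.67, 5.20 and 3.44 CPM in old vehicle and 1.65, 15.5, 2.45 and 2.71 CPM in old D+Q. Young replicate 4 and old D+Q replicate 2 were high, the first at 29.1 times the lowest young library, and the groups overlapped. The high young value rested on 1213 reads and the lowest young value on 53 reads, so both were well above the floor of 3 reads. Bhlhe40, on chromosome 6 from 108660629 to 108666925 on the plus strand, had 222, 163, 195 and 242 CPM in young, 145, 201, 214 and 169 CPM in old vehicle and 200.1, 298, 206 and 202 CPM in old D+Q. The same young replicate 4 and old D+Q replicate 2 were the highest of their groups, and the groups overlapped. Bhlhe41, which in cultured mouse muscle cells is known to hold back the myogenic factor Myod1, lies on the same chromosome from 145858243 to 145865558 on the minus strand. It had 27.8, 23.2, 47.3 and 39.8 CPM in young, 25.9, 32.5, 41.8 and 25.9 CPM in old vehicle and 31.3, 31.6, 27.9 and 23.6 CPM in old D+Q. Young replicate 3, old vehicle replicate 3 and old D+Q replicate 2 were highest for Bhlhe41 in their groups, and the groups overlapped. The library with the highest value was the same for Bhlhe40 and Bhlhe41 in both old groups and differed in young. For Bhlhe41, 19.0% of annotated exon bases are shared with a gene on the other strand that the count table does not list, so reads of the pair cannot be told apart unless strand was used.

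Rora, the RORE activator, spans the longest stretch of the 8 genes, chromosome 9 from 68653786 to 69388246 on the plus strand. Its levels were 82.7, 79.4, 124 and 145 CPM in young, 101, 108, 90.8 and 90.2 CPM in old vehicle and 82.5, 95.4, 73.1 and 154 CPM in old D+Q. Young replicates 3 and 4 and old D+Q replicate 4 were high, and the groups overlapped. These 3 libraries were also those in which long genes read high: the slope of log2 level on log2 gene length was 0.047 and 0.059 in young replicates 3 and 4 and 0.030 in old D+Q replicate 4, against -0.042 to 0.017 in the other 9. Within groups, Rora followed this slope with Pearson r = 0.93 (exact permutation p = 0.000506, adjusted p = 0.00405 over the 8 genes, n = 12, two-sided) and Spearman rho = 0.95 (exact permutation p = 0.00231). Without the 2 libraries farthest from the median slope, r was 0.92 (exact permutation p = 0.00810). None of the other 7 genes passed this test, the nearest being Hlf with r = 0.67 (exact permutation p = 0.0476, adjusted p = 0.190). The length used was the deposited gene length, 13071 bases for Rora and the longest of the 8, rather than the stretch spanned. The slope was fitted over all tested genes, Rora included, so that a long gene follows it is partly built in. The slope was examined after the data had been seen, and what sets it was not tested.

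The first comparison asked which of the 8 genes differed between old vehicle and young muscle. By edgeR's quasi-likelihood test, with p-values adjusted over all tested genes (Benjamini-Hochberg), 0 of the 8 passed 0.05, where 1.86% of all tested genes did. None reached an unadjusted p under 0.05 either (background 16.0%), and the groups overlapped for all 8 (9.36% of tested genes did not overlap). DESeq2 and limma-voom also called 0 of the 8, beside 4.82% and 1.71% of all tested genes, but DESeq2 gave Dbp no adjusted p. The median log2 fold change of the 8 was -0.16, beside -0.01 for all tested genes. Dbp had the largest positive estimate, a log2 fold change of 1.40 ± 0.65 SE (95% interval -0.02 to 2.82, adjusted p = 0.317), and without old vehicle replicate 3 it was -0.06. Ciart had the largest negative one, -1.50 ± 0.998 SE (-3.66 to 0.67, adjusted p = 0.447), which without young replicate 4 became 0.54. The intervals of the steadier genes were narrower. Tef differed by 0.09 (-0.17 to 0.36), Hlf by -0.26 (-0.60 to 0.08), Bhlhe40 by -0.17 (-0.54 to 0.20; -0.085 without young replicate 4), Bhlhe41 by -0.13 (-0.61 to 0.35) and Rora by -0.15 (-0.66 to 0.37). The interval of Nfil3, around -0.42, ran from -1.39 to 0.56, and its estimate was -0.11 without old vehicle replicate 3 and -0.14 without young replicate 4. A log2 difference of 1 in either direction thus lay outside the interval for Tef, Hlf, Bhlhe40, Bhlhe41 and Rora. A difference of that size lay inside the interval of Dbp (higher) and of Nfil3 and Ciart (lower).

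The second comparison asked which of the 8 genes differed between old D+Q and old vehicle muscle. Of the 8 genes 0 passed the same test, and 0% of all tested genes did. Unadjusted p under 0.05 was reached by 0 of the 8 and by 2.16% of all tested genes, and the groups overlapped for each of the 8 (2.17% of tested genes did not overlap). DESeq2, which gave Dbp no adjusted p, called 0 of the 8 and 0.0743% of all tested genes, and limma-voom called none of either. The median of the 8 was 0.02, beside 0.01 for all tested genes, with 4 estimates positive and 4 negative. Dbp had a log2 fold change of -1.21 ± 0.65 SE (-2.61 to 0.20), and without old vehicle replicate 3 it was 0.25. This estimate and the one against young share the old vehicle libraries, replicate 3 included. Bhlhe40 differed by 0.31 (-0.06 to 0.68), and by 0.15 without old D+Q replicate 2. Nfil3 differed by 0.48 (-0.49 to 1.46), by 0.15 without old D+Q replicate 2 and by 0.18 without old vehicle replicate 3. Ciart differed by 0.59 (-1.56 to 2.73), and by -0.71 without old D+Q replicate 2. For Tef the interval around -0.01 was -0.28 to 0.26, for Hlf around -0.09 it was -0.43 to 0.25, for Bhlhe41 around -0.14 it was -0.62 to 0.34 and for Rora around 0.06 it was -0.46 to 0.57.

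**Figure D2:**
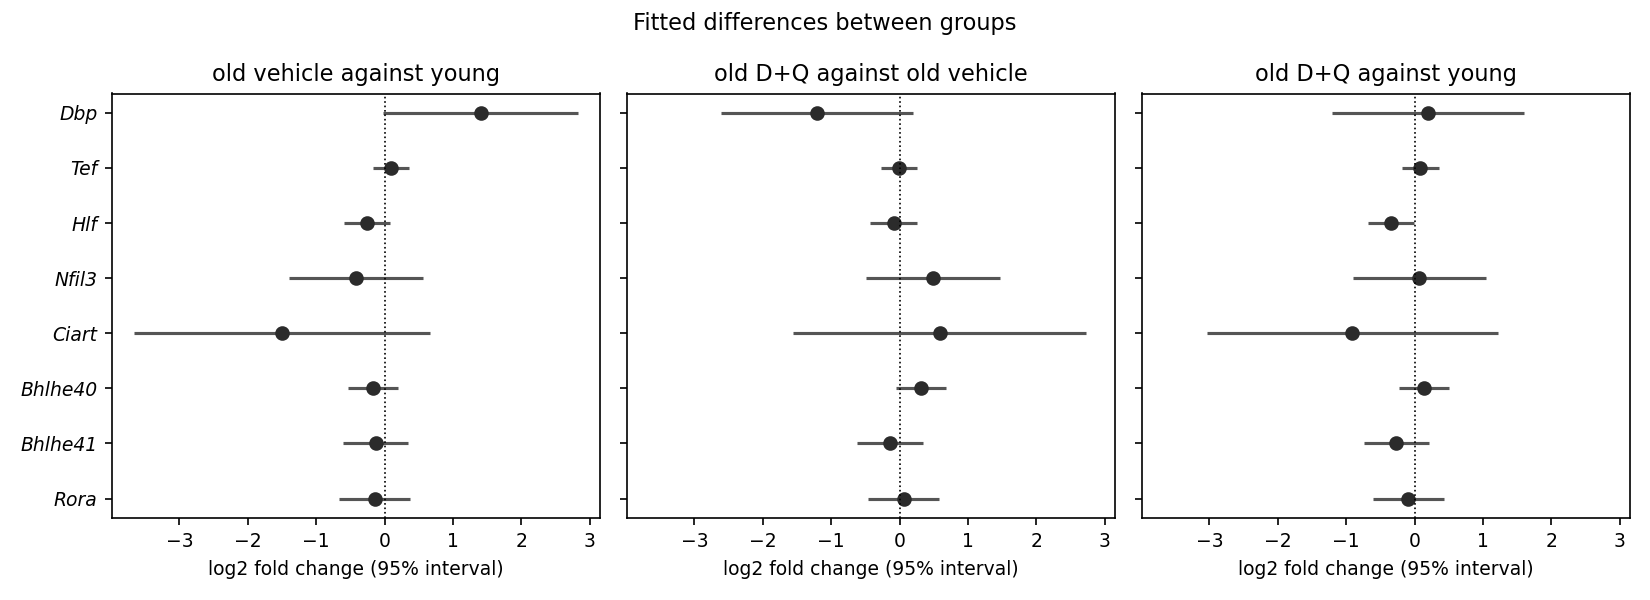
Log2 fold change of each of the 8 genes in the 3 comparisons from edgeR's fit of 12 libraries, with points at the estimate and bars spanning the 95% interval. The bars of Ciart, Dbp and Nfil3 are the widest, and only that of Hlf in old D+Q against young (-0.69 to -0.01) leaves out 0, at an adjusted p of 0.275.

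Old D+Q was also set against young, where age, gavage and drugs differ together. Again 0 of the 8 passed, against 0.892% of all tested genes. DESeq2 and limma-voom called 0 of the 8, beside 3.78% and 0.749% of all tested genes, and DESeq2 again gave Dbp no adjusted p. Hlf alone had an unadjusted p under 0.05, as 17.8% of all tested genes had. Its mean was 12.8 ± 2.48 CPM in young, 10.7 ± 1.44 CPM in old vehicle and 10.1 ± 1.23 CPM in old D+Q (SD, n = 4). The log2 fold change of Hlf was -0.35 ± 0.16 SE (-0.69 to -0.01, adjusted p = 0.275), and its estimate lay below 0 in each of the leave-one-out fits, between -0.46 and -0.21. The groups overlapped for all 8 genes (6.69% of tested genes did not), and the median of the 8 was -0.01, beside -0.00 for all tested genes. Ciart differed by -0.91 (-3.03 to 1.21), with -2.21 when old D+Q replicate 2 was left out and 1.12 when young replicate 4 was.

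For Ciart, Dbp and Nfil3 the larger feature was the spread between libraries of the same group. The within-group SD of log2 CPM was 1.59 for Ciart, 0.98 for Dbp and 0.80 for Nfil3, larger than in 99.8%, 98.2% and 95.9% of all tested genes. The median over tested genes was 0.29. Bhlhe41 (0.35) and Rora (0.38) were a little above that median, and Bhlhe40 (0.26), Hlf (0.22) and Tef (0.17) below it. Among the clock genes proper, Nr1d1 (0.87), a repressor at ROREs, and Per1 (0.80), a repressor also induced by glucocorticoids, varied as widely. Arntl had an SD of 0.34, Cry1 of 0.29 and Cry2 of 0.19. Single libraries weighed on the wide values. In old vehicle replicate 3, Dbp deviated from its group's mean log2 CPM by 2.26, Nfil3 by -1.56 and Nr1d1 by 1.65. Ciart deviated by 3.05 in young replicate 4 and by 2.10 in old D+Q replicate 2. The SDs were not recomputed without these libraries.

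**Figure D3:**
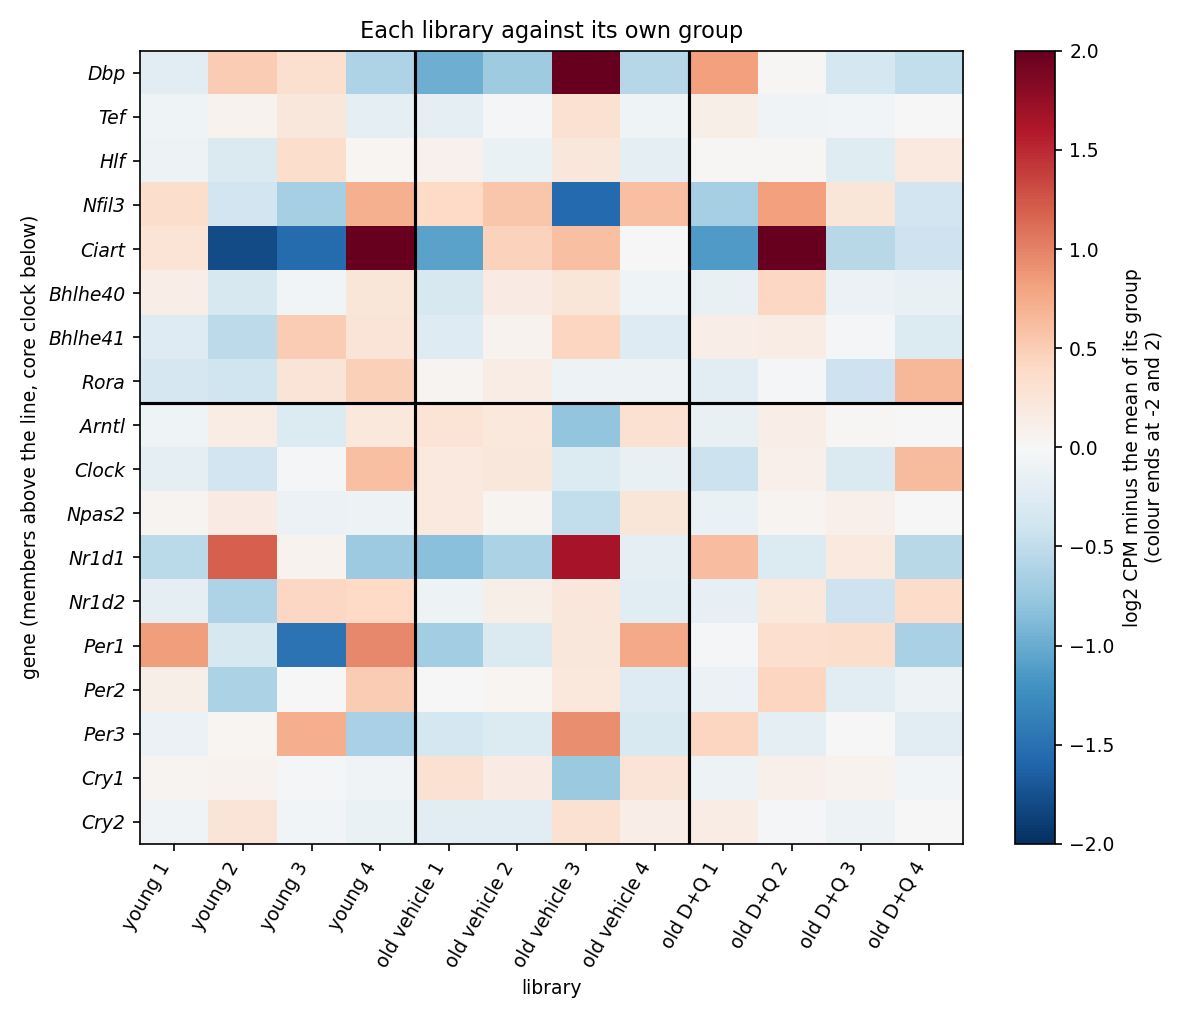
Log2 CPM of the 8 genes (above the line) and of core clock genes (below it) in each library, minus the mean of that library's group, with colours that end at -2 and 2. Old vehicle replicate 3 is high in Dbp, Nr1d1 and Per3 and low in Nfil3, Arntl and Cry1, and young replicate 4 and old D+Q replicate 2 are high in Ciart.

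Old vehicle replicate 3 stood apart in the core clock as well as in the outputs. Arntl, the activator of the loop, was at 30.4 CPM there against 60.7 to 64.9 CPM in the other old vehicle libraries. Nr1d1 was at 229 CPM against 41.1 to 64.4 CPM, and Per3, a Per family member, at 34.2 CPM against 14.0 to 14.8 CPM. Cry1, a repressor, was at 15.2 CPM in this library and at 28.4 to 31.4 CPM in the other 3. Nr1d1 was also high in young replicate 2 (219 CPM) and old D+Q replicate 1 (158 CPM), where Dbp, at 12.7 and 17.6 CPM, was the highest of its group. Red cell markers summed to 46.5 CPM in old vehicle replicate 3 and to 8.64 to 22.8 CPM in the others of its group, and their part in these values was not tested. The total of this library, 38109111 reads, lay inside the range of the 12.

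How the 8 genes varied together was examined over the 12 libraries after each group's mean had been taken off, in 28 pairs of the 8 genes and 8 pairs of each with Arntl. Of these 36 pairs, 3 passed an adjusted p of 0.05 in an exact permutation test within groups (13824 permutations, two-sided), and 8 had an unadjusted p under 0.05. Tef and Nfil3, activator and repressor of D-boxes, were opposed. Their Pearson r was -0.91 (exact permutation p = 0.000723, adjusted p = 0.0130, n = 12) and their Spearman rho -0.81 (exact permutation p = 0.00268, adjusted p = 0.0482). Without the 2 libraries with the farthest Tef values, young replicate 3 and old vehicle replicate 3, r was -0.77 (exact permutation p = 0.0255). Leaving out 1 library at a time kept r between -0.94 and -0.82, but the adjusted p was above 0.05 without young replicate 3 (0.0521), young replicate 4 (0.0521), old vehicle replicate 3 (0.0972) or old D+Q replicate 2 (0.0625).

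**Figure D4:**
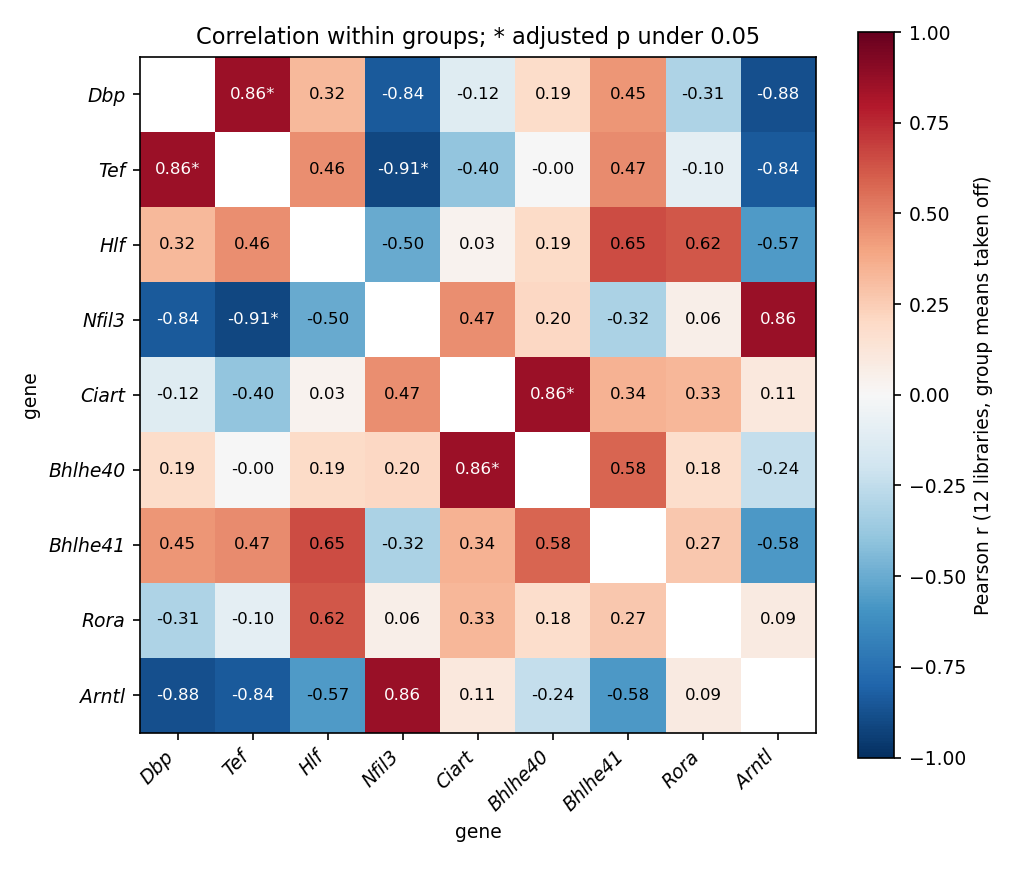
Pearson r of log2 CPM between each pair of the 8 genes and Arntl over 12 libraries after each group's mean was taken off, with an asterisk where the adjusted p of the exact permutation test is under 0.05. Tef and Dbp go together and against Nfil3, Ciart goes with Bhlhe40, and 3 pairs carry an asterisk.

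Ciart and Bhlhe40, the E-box side repressors, varied together. Their r was 0.86 (exact permutation p = 0.000145, adjusted p = 0.00521, n = 12) and rho 0.89 (exact permutation p = 0.000217, adjusted p = 0.00781). The libraries with the farthest Ciart values were young replicate 4 and old D+Q replicate 2, and without both r was 0.87 (exact permutation p = 0.00231). Leaving out old D+Q replicate 2 alone, with r = 0.80 and an adjusted p of 0.0885, was the only omission of 1 library that ended the call. Bhlhe41 did not pass with either gene.

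Dbp and Tef, both PAR bZIP activators, had r = 0.86 (exact permutation p = 0.00412, adjusted p = 0.0495, n = 12) and rho = 0.79 (exact permutation p = 0.0103, adjusted p = 0.0931). Without old vehicle replicate 3 and old D+Q replicate 1, r was 0.72 (exact permutation p = 0.134). When 1 library was left out, the call was kept only without young replicate 2 or old D+Q replicate 4, and r ran from 0.74 to 0.92. Dbp against Nfil3 was opposed in sign, with r = -0.84, but did not pass (exact permutation p = 0.0182, adjusted p = 0.109), and without old vehicle replicate 3 its r was -0.58. Of the pairs with Arntl, none passed. The r of Arntl was -0.88 with Dbp (adjusted exact permutation p = 0.200), -0.84 with Tef (adjusted exact permutation p = 0.101) and 0.86 with Nfil3 (adjusted exact permutation p = 0.101), and without old vehicle replicate 3 it was -0.40, -0.71 and 0.66. Nfil3 and Ciart had r = 0.47, and 0.87 without old vehicle replicate 3 (adjusted exact permutation p = 0.0573), so that library moved pairs in both directions.

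**Figure D5:**
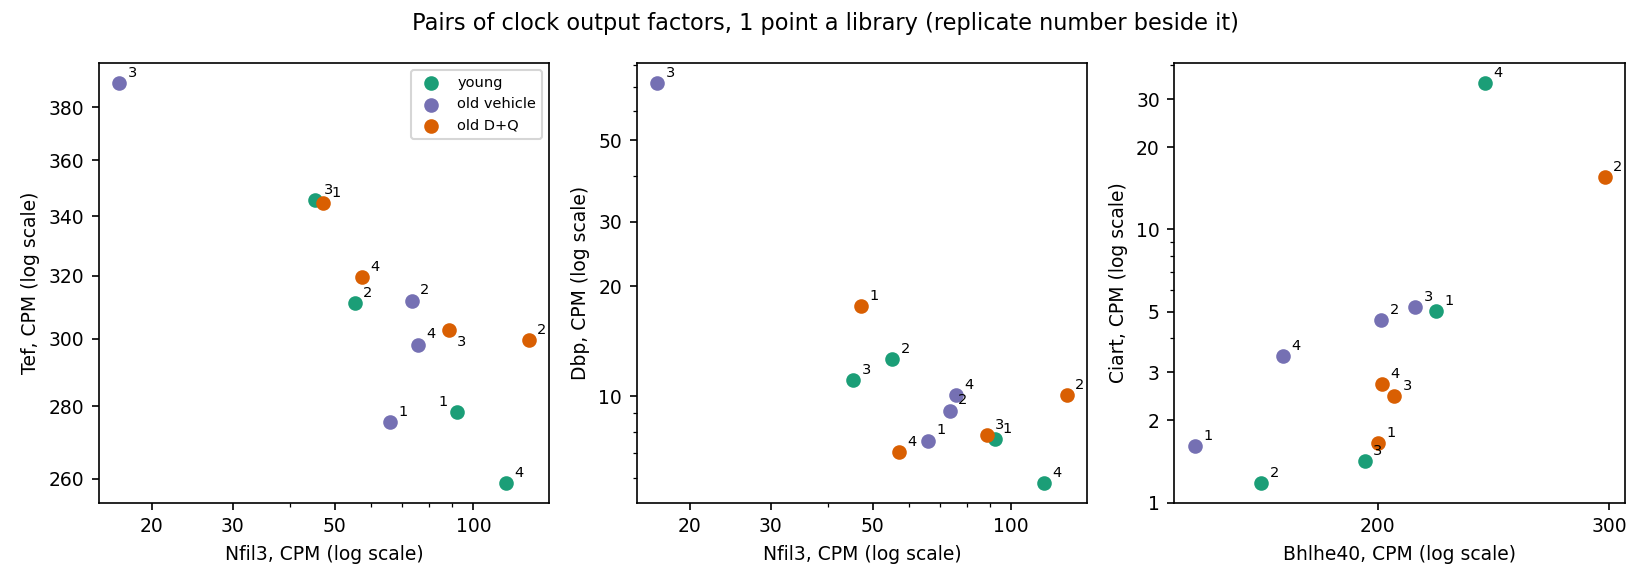
Levels in CPM on log axes for Tef against Nfil3, Dbp against Nfil3 and Ciart against Bhlhe40, with 1 point per library marked by group. Old vehicle replicate 3 (Nfil3 17.0 CPM) lies at one end of the first 2 panels, and young replicate 4 and old D+Q replicate 2 lie at the high end of Ciart in the third.

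Among 10985 tested genes other than the 8, those with the level most like each were listed by Pearson r over the 12 libraries, as a description. All points share their libraries. Group means were not taken off here, and r was not recomputed without the outlying libraries. Spearman rho is added where it was clearly lower than r. For Tef the nearest was Per3 (r = 0.94), followed by the muscle chloride channel Clcn1 (0.90) and Tmem175 (0.89). For Dbp, Zfp28 (0.88, rho 0.73) and Agap1 (0.86, rho 0.74) came first and Per3 (0.84) next. Nfil3 was nearest to Bcl6b (0.95), Zbtb21 (0.89) and the orphan nuclear receptor Nr4a2 (0.89). Ciart was nearest to the amino acid transporter Slc7a1 (0.92, rho 0.70), Slc25a33 (0.90, rho 0.69) and Impact (0.89, rho 0.71). Bhlhe40 was nearest to Nhlrc3 (0.83, rho 0.73), Zfp612 (0.79) and Amotl1 (0.78). Rora had the closest neighbours, Ubr3 (0.98), Skp1a (0.97) and Tax1bp1 (0.97). Since Rora followed the length slope of the libraries, its neighbours may share that slope, which was not tested. For Hlf they were Gnpda2 (0.94), Zfp763 (0.92) and Cntln (0.92), and for Bhlhe41 Map9 (0.90), Reep1 (0.85) and Fer1l6 (0.84, rho 0.66).

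The genes around the 8 in the pathway were read from lists of known members. Of 13 tested core clock genes, 2 rose in old vehicle against young and none fell, where 1.21% of all tested genes rose. Per2, a repressor of the loop, went from 4.12 ± 1.26 CPM to 9.22 ± 1.19 CPM (log2 fold change 1.16 ± 0.22 SE, adjusted p = 0.0195). Cry2, its partner family, went from 41.0 ± 5.37 CPM to 62.3 ± 11.3 CPM (0.60 ± 0.14 SE, adjusted p = 0.0422). Without old vehicle replicate 3 both missed the threshold in edgeR, Per2 with adjusted p = 0.0662 and Cry2 with adjusted p = 0.124, and over all 24 other settings Per2 missed it in 5 and Cry2 in 10. In the same comparison the summed markers of tenocytes had medians of 443 CPM in young and 262 CPM in old vehicle, and those of red cells 6.90 and 19.8 CPM. Of the tenocyte markers, Scx went the other way (log2 fold change 0.59) without passing. The macrophage marker Cd68 rose (log2 fold change 0.86, adjusted p = 0.0176). The other macrophage markers found, C1qa (0.75), Csf1r (0.31) and Mrc1 (-0.28), did not pass. Summed macrophage markers had medians of 36.7 CPM in young and 41.2 CPM in old vehicle, with overlapping ranges. The part of these markers in the values of Per2 and Cry2 was not tested. The upstream genes Arntl (-0.32), Nr1d1 (-0.22), Nr1d2 (-0.11), Per1 (-0.18), Per3 (0.25) and Cry1 (0.17) did not pass, and the median of the list was -0.01. Of the 13, 3 had an unadjusted p under 0.05 in old vehicle against young, beside 16.0% of all tested genes. In old D+Q against old vehicle none of the 13 passed in edgeR and 1 had an unadjusted p under 0.05. Of all tested genes 0% passed there, and 2.16% had an unadjusted p under 0.05. There Arntl differed by 0.26, Nr1d1 by 0.17, Nr1d2 by -0.11, Per1 by 0.99, Per2 by -0.43, Per3 by -0.07, Cry1 by 0.01 and Cry2 by 0.01 on the log2 scale. Against young, none of the 13 passed in old D+Q and 2 had an unadjusted p under 0.05, beside 0.892% and 17.8% of all tested genes. Cry2 was at 0.61 (adjusted p = 0.0575) and Per2 at 0.74 (adjusted p = 0.154).

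Of 16 tested genes known as clock-controlled in muscle, Pfkfb3, a regulator of glycolysis, alone passed in old vehicle against young, where 0.650% of all tested genes fell. Its mean was 281 ± 58.2 CPM in young and 125 ± 38.3 CPM in old vehicle (log2 fold change -1.18 ± 0.26 SE, adjusted p = 0.0411), and its adjusted p was above 0.05 when any of 6 single libraries was left out. In old D+Q Pfkfb3 was at 248 ± 80.5 CPM, 0.99 ± 0.26 SE above old vehicle on the log2 scale, with adjusted p = 0.9999. No gene of the list was called there, and 0% of all tested genes were. The same old vehicle libraries enter both estimates of Pfkfb3, which was named for being called low in them. A return towards the young level therefore cannot be read from the pair of estimates. Of 10 PAR bZIP targets described in liver, kidney or brain, 6 had enough reads to test and 0 passed in edgeR in any of the 3 comparisons, with 3, 0 and 2 at an unadjusted p under 0.05. Over all tested genes the shares in the same order were 1.86%, 0% and 0.892% for calls and 16.0%, 2.16% and 17.8% for unadjusted p. The medians of the 6 were -0.28, 0.10 and -0.11. Of 16 glucocorticoid-responsive genes 0 passed in any comparison, with 0, 0 and 1 at an unadjusted p under 0.05, beside the same shares of all tested genes. In old D+Q against old vehicle 15 of the 16 had a positive estimate, as did 8558 of all 16146 tested genes, with a median of 0.19 beside 0.01 for all tested genes. Among 7 tested kinases and ubiquitin ligase subunits that act on clock proteins 0 passed in edgeR in any comparison, and 0 had an unadjusted p under 0.05. The shares of all tested genes are those given above.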

How the data were processed

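Per the labels' protocols, polyadenylated RNA was made into stranded libraries with a TruSeq kit. Per the submitters' processing notes, STAR 2.6.1c, Subread and featureCounts 1.5.1 were used with mm10. Neither the strand setting nor the annotation release is given in the sources used here. Deposited values were of 2 kinds. Raw read counts, whole numbers per gene and library, were made by the authors and entered all tests. The authors' RPKM values served only to order levels between genes.

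Groups came from the labels. No library repeated another: between libraries of the same group, chi-square per gene ranged from 14.2 to 213. In edgeR 4.0.16 (R 4.3.3), filterByExpr chose the genes (count minimum 10, total minimum 15), TMM scaled the libraries and a single fit of group means covered all 12. Calls needed a Benjamini-Hochberg adjusted p under 0.05 over all tested genes. CPM use TMM-scaled totals, and log2 CPM a prior count of 0.5. Correlations were tested by exact permutation within groups and adjusted over 36 pairs. DESeq2 1.42.0, limma-voom (limma 3.58.1), other scalings, filters and omissions of libraries were alternatives. The test and the correlations were tested on simulated data. Promoters came from RefSeq, and gene strands and overlaps from the annotation given for mm10. The 8 genes, the lists, the named-gene rule (all 8 genes, called list members, 8 fixed clock genes, the 3 nearest genes by r with mean log2 CPM of at least 1, without predicted genes and Riken clones) and the tests were chosen with earlier results of these data known.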

Additional observations from a re-analysis of the deposited data

Results flagged for a closer look

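In each group of 4, the highest or lowest library of the 8 genes and of 8 core clock genes was compared with the rest. It was listed where its gap to the nearest of the others took up more of the group's range than Dixon's 95% critical value for 4 samples. Of 48 such groups 10 were listed. The critical value would list about 1 in 20 by chance if values within a group were normally distributed. That was not checked for CPM, and the gaps were not retaken on log2 CPM. The 10 therefore cannot be read as an excess over chance. Old vehicle replicate 3 accounted for 5: Dbp at 71.7 CPM (others 7.57 to 10.1), Nfil3 at 17.0 CPM (others 65.9 to 75.8), Arntl at 30.4 CPM (others 60.7 to 64.9), Nr1d1 at 229 CPM (others 41.1 to 64.4) and Per3 at 34.2 CPM (others 14.0 to 14.8). Old D+Q replicate 2 was high in Ciart at 15.5 CPM (others 1.65 to 2.71), Bhlhe40 at 298 CPM (others 200.1 to 206) and Per2 at 9.12 CPM (others 5.83 to 6.26). Young replicate 4 was high in Ciart at 34.4 CPM (others 1.18 to 5.01), and young replicate 2 in Cry2 at 49.0 CPM (others 37.3 to 39.1). The 8 output genes had 5 of these values in 24 groups. The genes of a library are not independent of each other, and no cause was tested.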

How the results depend on the processing

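Under 24 alternative settings, 0 of the 8 genes were called in any comparison, and of their 576 log2 fold changes 538 kept their sign and 38 did not. The smallest adjusted p was 0.0631, for Hlf in old D+Q against young without young replicate 2, and DESeq2 gave none for Dbp. Pfkfb3, called in old vehicle against young, missed the threshold in 9 settings. Counts over all genes moved more. For old vehicle against young the 300 calls became 778 with DESeq2, 141 with the replicate block, 188 in a 2-group fit, 54 with young replicate 4, old vehicle replicate 3 and old D+Q replicate 2 set aside, 1590 with the length slope as a covariate, and 146 to 1022 without 1 library. For old D+Q against old vehicle DESeq2 called 12 in place of 0. For old D+Q against young the 144 calls became 610, 35, 25, 3 and 496 in the same order, and 44 to 1935 without 1 library. The 3 called pairs became 0 without the 2 farthest libraries and 0 with the 3 libraries set aside. With the 3 libraries set aside too few permutations remain to speak of stability. Without the 2 farthest libraries fewer remain too, but a pair could still pass. There Tef and Nfil3 had r = -0.77 (exact permutation p = 0.0255, unadjusted), and Dbp and Tef r = 0.72 (exact permutation p = 0.134, unadjusted). Ciart and Bhlhe40 kept r = 0.87 without the 2 farthest libraries (exact permutation p = 0.00231, unadjusted). The called pairs became 9 with the length slope taken off, and 0 to 5 without 1 library. The causes were not tested. The length slope and the 3 libraries were chosen after seeing the data.

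Some signs turned. In old vehicle against young, with 3 libraries set aside, Dbp was -0.23, Tef -0.078, Nfil3 0.16, Ciart 0.34 and Rora 0.060, and Rora was 0.093 with the length slope. Without 1 library, Dbp ran from -0.056 to 1.70, Tef -0.016 to 0.17, Ciart -1.90 to 0.54, Bhlhe41 -0.30 to 0.059 and Rora -0.29 to 0.027. In old D+Q against old vehicle, with 3 libraries set aside, Dbp was 0.28, Tef 0.13, Nfil3 -0.16 and Ciart -0.51. Rora was -0.00091 with limma-voom and -0.010 with the block, and Tef 0.0045 with the block. Without 1 library, Dbp ran from -1.55 to 0.25, Tef -0.073 to 0.10, Ciart -0.71 to 0.89, Bhlhe41 -0.23 to 0.025 and Rora -0.22 to 0.19. In old D+Q against young, Rora was 0.11 with 3 libraries set aside, Nfil3 -0.0025 with library totals only, and Dbp -0.20, Ciart 0.61 and Rora 0.20 with the length slope. Without 1 library, Dbp ran from -0.17 to 0.35, Nfil3 -0.27 to 0.34, Ciart -2.21 to 1.12, Bhlhe40 -0.020 to 0.23 and Rora -0.37 to 0.085. The replicate numbers were not taken to pair samples: deviations of 12 same-numbered pairs correlated between -0.368 and 0.381, 4 of them over 0.1, and 3 of 12 libraries matched their own number best. With the replicate block the adjusted p of Per2 in old vehicle against young was 0.0878, of Cry2 0.143 and of Pfkfb3 0.0680.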
